A study of Mus musculus with 6 samples.

Results

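The heat shock proteins and their DnaJ partners were followed in mouse hepatocytes as a group of 71 protein-coding genes, out of 48432 genes in the deposited expression table. A gene belonged to the group when its symbol began with Dnaj or Hsp90, or with Hspa, Hspb, Hspd, Hspe or Hsph and a digit. 1 small heat shock protein was not included. The rule reads symbols and no expression values, and the group was taken up with earlier results of these data known. Polyadenylated RNA had been sequenced from 6 samples of hepatocytes of the FVB strain, with 2 samples in each of 3 groups. The DDC fed adults had received for 4 weeks a diet with DDC, a compound that raises porphyrins and damages liver and bile ducts. The E18 hepatocytes came from livers at embryonic day 18, where about 8 embryos were pooled for each sample. The normal fed adults were the untreated group. All 3 groups share the strain and the isolation of hepatocytes, no genetic change is named in the labels, and the sex and age of the adults are not given there.

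Heat shock proteins are molecular chaperones that bind unfolded stretches of other proteins and keep them from aggregating. Hsp70 proteins (Hspa genes) bind and release a client by cycles of ATP hydrolysis. DnaJ proteins, also called Hsp40 or J proteins, deliver the client and start the hydrolysis, and the Hsp110 proteins (Hspa4, Hspa4l, Hsph1) exchange the spent ADP for ATP. Hsp90 proteins finish the folding of kinases and receptors, the mitochondrial chaperonin of Hspd1 and Hspe1 folds proteins in a closed chamber, and small heat shock proteins hold unfolded clients without ATP. Under heat or proteotoxic stress the heat shock factors switch on the cytosolic genes, and the unfolded protein response switches on those of the endoplasmic reticulum (ER), the entry point of the plasma proteins that hepatocytes secrete.

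Promoter windows show which members carry the DNA letters of these response elements. RefSeq windows on GRCm38.p6, from 250 bases before to 50 after a gene's start, were at hand for 57 of the 71 members and held 74 windows, out of 32851 windows of all genes. The heat shock element is built from inverted GAA units, and the motif of 3 units searched here was GAA, TTC and GAA with 2 bases of any kind between neighbours, on either strand. It was found in 6 member windows, or 8.11% of them, and in 0.603% of all windows. Those 6 windows belonged to Hspe1, Hspd1, Hsph1 and Dnajb6. The 3 printed first show this motif in capitals, and that of Hspe1 stands also for Hspd1, since the genes run in opposite directions and a Hspd1 window shares 285 bases with it. Motifs in these shared bases are counted in the windows of both genes. The motifs lay 89 to 72 bases before the start of Hspe1 (2 overlapping matches), 37 to 49 bases after that of Hsph1, and 46 to 34 bases before that of Dnajb6.
Hspe1 (chr1:55087898-55088197, plus strand): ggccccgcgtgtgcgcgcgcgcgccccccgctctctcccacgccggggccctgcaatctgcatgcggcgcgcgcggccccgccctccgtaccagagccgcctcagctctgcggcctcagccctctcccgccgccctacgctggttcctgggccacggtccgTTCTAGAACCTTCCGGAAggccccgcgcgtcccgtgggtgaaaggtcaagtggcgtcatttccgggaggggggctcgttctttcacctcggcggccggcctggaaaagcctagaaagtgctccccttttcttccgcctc
Hsph1 (chr5:149636287-149636586, minus strand): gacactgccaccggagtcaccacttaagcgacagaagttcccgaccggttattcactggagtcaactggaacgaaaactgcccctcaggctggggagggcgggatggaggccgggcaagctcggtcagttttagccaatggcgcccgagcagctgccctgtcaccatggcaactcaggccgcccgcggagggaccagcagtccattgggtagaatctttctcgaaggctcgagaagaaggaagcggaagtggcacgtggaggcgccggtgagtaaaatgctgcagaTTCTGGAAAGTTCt
Dnajb6 (chr5:29735648-29735947, plus strand): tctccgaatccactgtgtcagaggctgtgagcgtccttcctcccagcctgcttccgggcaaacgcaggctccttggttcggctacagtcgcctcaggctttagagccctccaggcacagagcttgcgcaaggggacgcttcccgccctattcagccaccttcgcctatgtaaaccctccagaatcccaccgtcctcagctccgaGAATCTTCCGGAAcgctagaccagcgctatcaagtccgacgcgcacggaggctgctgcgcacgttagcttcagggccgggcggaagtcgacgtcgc

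The motif of 2 units, GAANNTTC with N for any base, reads the same on both strands and lies within every motif of 3 units. It was in 15 member windows of 13 genes, which is 20.3% of the member windows against 7.86% of all windows. The other order of 2 units, TTCNNGAA, was in 8 member windows, or 10.8%, against 8.52% of all. The window of Hspb8 is printed because Hspb8 had the largest fall of the members at E18, and its GAANNTTC match lies 3 to 10 bases after the start.
Hspb8 (chr5:116422815-116423114, minus strand): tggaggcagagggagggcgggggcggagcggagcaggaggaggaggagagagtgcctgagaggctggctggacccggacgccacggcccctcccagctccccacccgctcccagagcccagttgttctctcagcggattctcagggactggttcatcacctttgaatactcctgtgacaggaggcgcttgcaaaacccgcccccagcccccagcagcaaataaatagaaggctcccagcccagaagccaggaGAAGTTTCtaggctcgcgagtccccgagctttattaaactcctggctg

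The ER stress element, searched on both strands as CCAAT and CCACG with 9 bases of any kind between them, was in 3 member windows, or 4.05%, against 0.119% of all windows. The windows are those of Hspa5, Hsp90b1 and Dnajc3, all genes of the ER lumen, and they are printed with the element in capitals because their levels are set side by side further on. The element began 65 bases before the start of Hspa5 and 105 bases before that of Dnajc3. Hsp90b1 had 2 copies, at 212 to 194 bases and, on the other strand, at 107 to 89 bases before the start. A match of letters is a description of the window and not a bound site.
Hspa5 (chr2:34771840-34772139, plus strand): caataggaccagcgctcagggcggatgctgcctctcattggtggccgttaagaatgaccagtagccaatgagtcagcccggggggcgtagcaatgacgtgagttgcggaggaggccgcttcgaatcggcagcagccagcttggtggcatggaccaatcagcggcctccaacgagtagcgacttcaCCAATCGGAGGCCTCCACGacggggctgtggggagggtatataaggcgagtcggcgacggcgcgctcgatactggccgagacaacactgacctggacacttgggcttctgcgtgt
Hsp90b1 (chr10:86705395-86705694, minus strand): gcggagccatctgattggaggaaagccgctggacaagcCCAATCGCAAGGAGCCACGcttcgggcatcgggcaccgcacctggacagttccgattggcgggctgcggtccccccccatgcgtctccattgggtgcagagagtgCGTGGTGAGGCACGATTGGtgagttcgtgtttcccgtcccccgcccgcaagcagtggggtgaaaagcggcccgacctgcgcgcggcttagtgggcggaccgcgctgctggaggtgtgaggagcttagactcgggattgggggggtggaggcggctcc
Dnajc3 (chr14:118937682-118937981, plus strand): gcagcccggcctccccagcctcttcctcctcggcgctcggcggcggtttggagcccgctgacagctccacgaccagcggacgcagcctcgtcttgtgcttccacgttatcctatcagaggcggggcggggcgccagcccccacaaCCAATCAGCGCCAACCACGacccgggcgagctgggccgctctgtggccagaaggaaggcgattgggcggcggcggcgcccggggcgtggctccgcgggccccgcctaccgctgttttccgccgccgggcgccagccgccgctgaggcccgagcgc

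Levels were given as TPM, transcript abundances that are corrected for transcript length and sum to 1000000 in each sample, so that genes can be compared with each other. The samples of each group are called 0 and 1, as the table's columns number them. Nothing in the labels says that samples of an adult group are separate animals. The p-values hence cover the spread between these samples alone, which may be technical. The table holds no read counts, and depth is unknown. Hepatocyte markers were high in every group, with a sum over 11 markers between 12799 and 25323 TPM. Of the 10 tested, 1 was higher with DDC, and 2 were higher and 6 lower at E18 than in normal fed samples. However, albumin was listed at 0 in all 6 samples, Apoa1 at 0 in the adult samples, Fgb at 0 at E18 and Serpina1a at 0 in the normal fed samples. Markers of blood cells were far higher at E18, as 13 erythroid markers summed to 37.3 and 37.1 TPM in DDC fed, 12994 and 24334 TPM in E18 and 39.5 and 27.9 TPM in normal fed samples. The 9 neutrophil and megakaryocyte markers summed to 9.13 and 9.70 TPM in DDC fed, 50334 and 59579 TPM in E18 and 1.84 and 2.14 TPM in normal fed samples, with Mpo, Gp9 and S100a9 listed at 0 in a whole group. Macrophage markers summed to 1194 and 1476 TPM in DDC fed, 3997 and 5116 TPM in E18 and 145 and 125 TPM in normal fed samples, and all 12 of them were higher both in DDC fed and in E18 samples than in normal fed ones (12 and 11 with the median-ratio scaling described further on). Stellate and fibroblast markers summed to 372 and 330 TPM in DDC fed, 349 and 318 TPM in E18 and 25.5 and 11.6 TPM in normal fed samples, with 9 of 10 higher with DDC and all 10 at E18. Cholangiocyte markers summed to 101 and 123 TPM in DDC fed, 178 and 120 TPM in E18 and 14.3 and 12.2 TPM in normal fed samples, with 4 and 6 higher of the 8 tested. Acta2, Cldn7 and Cftr of these lists were at 0 in a whole group. Over all genes tested, 34.2% were higher and 3.07% lower with DDC than in normal fed samples, and 63.0% and 12.7% at E18. In such bulk samples, fewer cells of a type and less RNA per cell cannot be told apart. The part of these other cells in the results on chaperones was not tested.

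Chaperone transcripts made up a similar share of the summed TPM in the 3 groups. Genes listed at 0, such as albumin, add nothing to that total, so it is not a share of all RNA. The 71 genes together held 0.884% and 1.04% of all TPM in the DDC fed samples, 0.943% and 0.824% in the E18 samples and 0.966% and 0.895% in the normal fed samples, and the ranges of the groups overlapped. The sum rested on few genes. The 3 highest members of a sample held 42.1% to 51.5% of it, and 14 to 18 members reached 100 TPM. Of the 71 members, 56 were at 1 TPM or more in every sample. Dnajb8, Dnajc5b, Dnajc5g, Hspb3 and Hspb9 were at 0 in all 6.

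**Figure D1:**
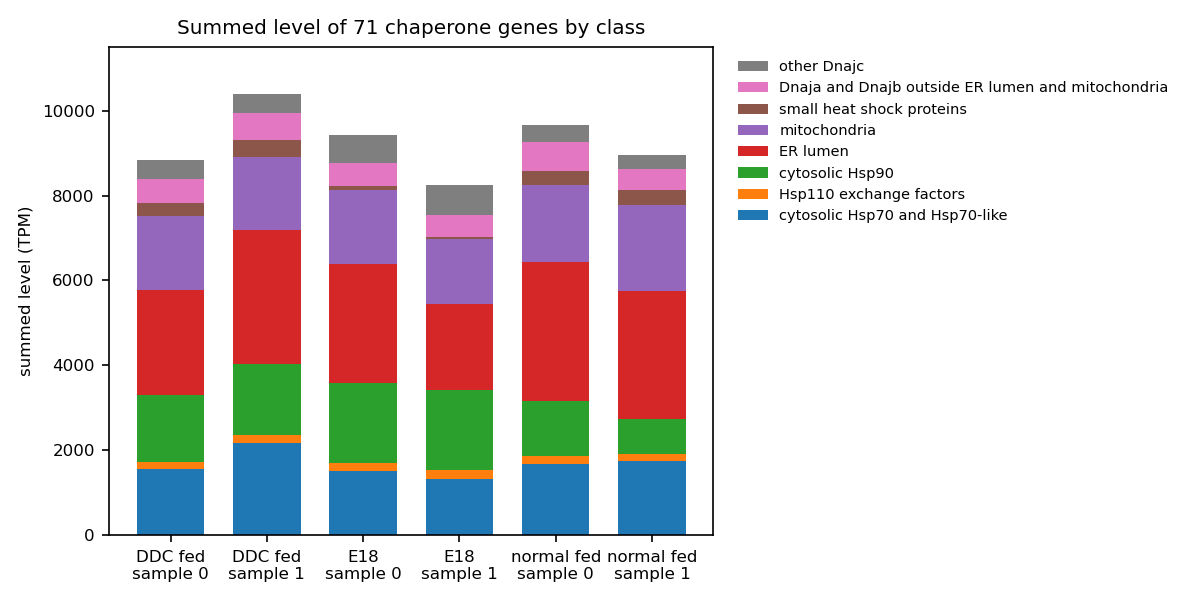
Stacked bars of the summed level (TPM) of 71 chaperone genes in each of the 6 samples, split into 8 classes by compartment and family. The totals lie between 8243 and 10382 TPM in all samples, and the band of small heat shock proteins is thinnest in the E18 samples.

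Hspa8, Hspa5, Hsp90ab1 and Hsp90b1 had the 4 highest mean levels of the members in each group. Hspa8, the constitutive Hsp70 of the cytosol, was at 1484 and 2091 TPM in DDC fed, 1399 and 1211 TPM in E18 and 1602 and 1731 TPM in normal fed samples. Hspa5, the Hsp70 of the ER also called BiP, was at 1226 and 1802 TPM in DDC fed, 1406 and 939 TPM in E18 and 1799 and 1812 TPM in normal fed samples. Both E18 samples lay below both normal fed samples for each of these genes, and the DDC fed samples of each overlapped or spanned the normal fed ones, with a larger spread. Hsp90ab1, the constitutive Hsp90, was at 1243 and 1271 TPM in DDC fed, 1348 and 1320 TPM in E18 and 978 and 580 TPM in normal fed samples. It ranked highest of the members at E18 by its mean, and the third among them in DDC fed and normal fed samples. Hsp90b1, the Hsp90 of the ER also called Grp94, was at 728 and 832 TPM in DDC fed, 974 and 761 TPM in E18 and 877 and 671 TPM in normal fed samples, and the groups overlapped. The neighbours in the order of mean levels were mostly closer than their spread. In normal fed samples Hsp90ab1 averaged 779 ± 281 TPM, Hsp90b1 774 ± 145 TPM and Hspe1 759 ± 441 TPM (SD, n = 2 each).

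**Figure D2:**
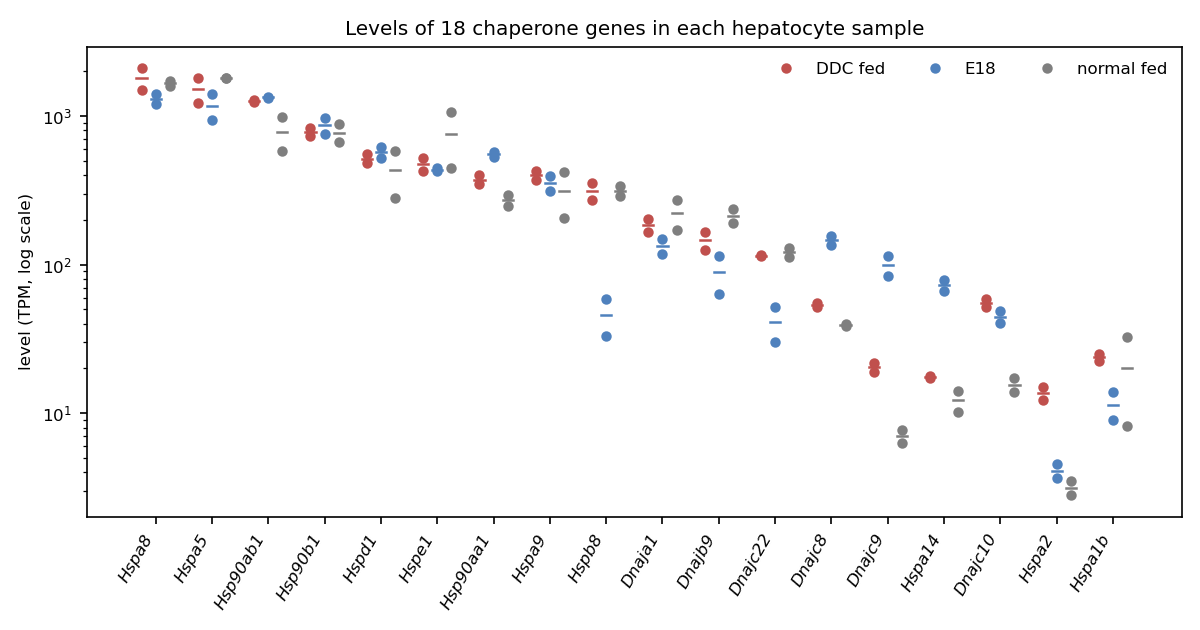
Levels (TPM, log scale) of 18 chaperone genes, with a point for each sample and a short line at the mean of the 2 samples of a group. Hspb8 and Dnajc22 are lowest at E18, Dnajc8, Dnajc9 and Hspa14 are highest there, and Hspa2 is highest in DDC fed samples, where it had 12.2 and 15.1 TPM.

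The tests asked which chaperone genes differ in hepatocytes after DDC feeding and in fetal hepatocytes, each against normal fed adults, and between DDC fed adults and E18. They were made on log2(TPM + 1) with limma over 14307 genes, with p-values adjusted over all of these and a threshold of 0.05. Fold changes are therefore log2 values on the log2(TPM + 1) scale, given ± SE, and understate the change of low genes. Of the 71 members, 60 had the 1 TPM in 2 samples that a test required. The 2 comparisons with normal fed adults share those samples. A gene that passed the filter only through the group where it is high had to differ. This holds for the 4 members tested that were under 1 TPM in some sample, Dnajb3, Dnajc6, Dnajc27 and Hspa12b.

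Few chaperone genes passed the test with DDC. Of the 60 tested, 7 rose and 0 fell (11.7%), where 37.3% of all genes tested passed, 34.2% higher and 3.07% lower. At an unadjusted p under 0.05 limma gave 11 members higher and 1 lower with DDC, where 43.4% of all genes were higher and 4.27% lower. At E18, 25 members rose and 8 fell against normal fed adults (55% of 60), where 75.7% of all genes passed, 63.0% higher and 12.7% lower. Between DDC fed adults and E18, 10 members were higher and 14 lower (40%), where 64.7% of all genes passed, 17.7% higher and 47.0% lower. The median fold change of the members tested was 0.32 with DDC, 0.28 at E18 and 0.07 for DDC fed over E18, against 0.45, 1.06 and -0.55 over all genes tested. With DDC 25 of the 60 lay above and 6 below the normal fed samples without overlap, where 62.4% of all genes tested lay above and 8.99% below. At E18 27 lay above and 19 below, where 69.7% of all genes lay above and 16.7% below. DDC fed samples lay above those of E18 for 23 of the 60 and below for 25, where this held for 28.2% and 61.8% of all genes.

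The counts depended on the scale that was chosen. Most genes are higher in DDC fed and in E18 than in normal fed samples when TPM are used as deposited. Scaling each sample by the median ratio of its genes lowers the median fold change of all genes by 0.47 with DDC and by 1.03 at E18, and raises that of DDC fed over E18 by 0.49. With that scaling 2 members of 59 were higher and 13 lower with DDC, where 33.5% of 13931 genes passed, 20.6% higher and 12.9% lower. At E18 it gave 8 members higher and 31 lower, where 69.5% of all genes passed, 36.6% higher and 32.9% lower. For DDC fed over E18 it gave 23 higher and 9 lower, where 61.3% passed, 28.2% higher and 33.1% lower. Fold changes with this scaling are given beside the others as relative to the median gene.

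**Figure D3:**
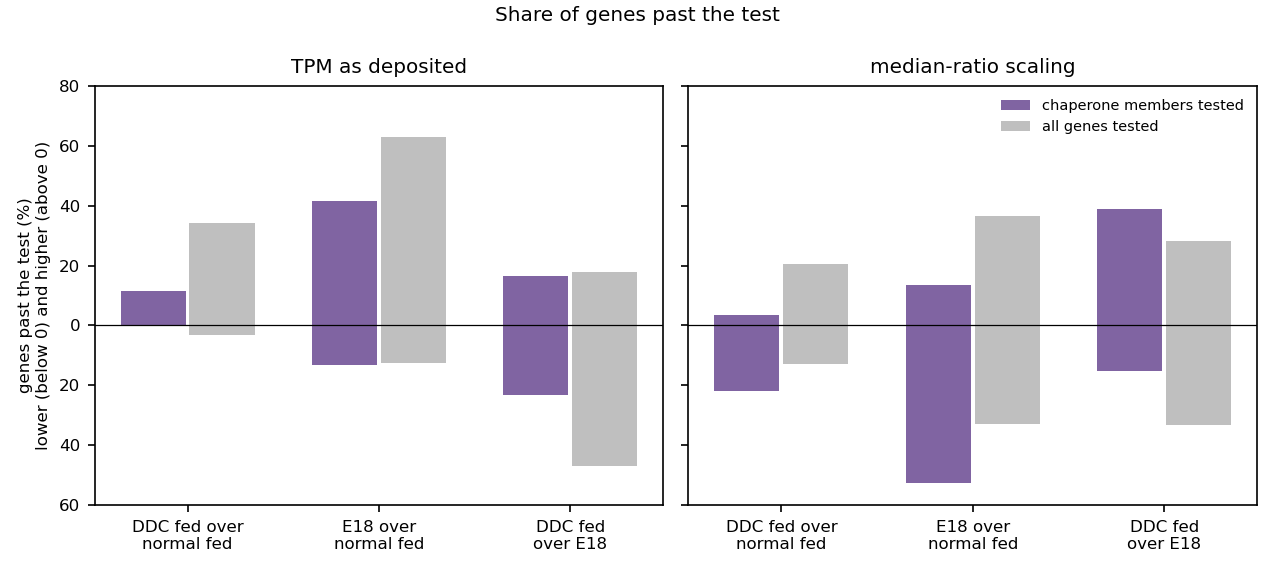
Share of genes (%) past the test that were higher (bars above 0) or lower (bars below 0), for chaperone members and for all genes tested, with TPM as deposited and with median-ratio scaling. With DDC 11.7% of the members tested were higher, against 34.2% of all genes, with TPM as deposited.

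The sample left out mattered as much for DDC. Without normal fed sample 0, 30 members were higher and 3 lower with DDC, and without normal fed sample 1, 7 were higher and 4 lower. Without DDC fed sample 0 or sample 1, 3 were higher and 0 lower, and without E18 sample 0 or sample 1, 4 were higher and 0 lower. At E18 the counts were 12 higher and 6 lower without E18 sample 0, and 13 higher and 3 lower without E18 sample 1, and 18 were lower without normal fed sample 1. For DDC fed over E18, 16 were higher and 20 lower without either normal fed sample. That comparison had 4 higher without DDC fed sample 0, DDC fed sample 1 or E18 sample 1 and 6 without E18 sample 0, with 9 lower without DDC fed sample 1, 7 without E18 sample 0 and 6 without E18 sample 1. Hspa2 and Dnajc10 passed with DDC in each of the 17 alternative settings. Beside each member named below stand the calls lost with median-ratio scaling or without a sample. Losses of members under other settings are counted in the closing section. Genes named below that are not members carry no such record, and their calls are those with TPM as deposited. Some of these calls were lost with median-ratio scaling, as the counts given for their lists show.

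Among the cytosolic Hsp70 genes, Hspa2 rose with DDC and Hspa14 was high at E18. Relative to the median gene 2 of the 6 cytosolic Hsp70 and Hsp70-like genes tested were higher and 3 lower at E18, where 36.6% and 32.9% of all genes were. Hspa8 was 1 of the 3 lower (-1.55), and passed in no comparison with TPM as deposited. Hspa2, known for its role in male meiosis and also found in other tissues, was at 12.2 and 15.1 TPM in DDC fed, 4.57 and 3.65 TPM in E18 and 3.49 and 2.79 TPM in normal fed samples. Both DDC fed samples lay above all others. It was higher with DDC (1.82 ± 0.22, adjusted p = 0.001) and higher in DDC fed adults than at E18 (1.52 ± 0.22, adjusted p = 0.00094). These changes were 1.27 and 1.90 relative to the median gene, and both passed. Against normal fed adults its difference at E18 was 0.30 ± 0.22 (adjusted p = 0.241). Relative to the median gene Hspa2 was instead lower at E18 (-0.63) and passed the test.

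Hspa14 joins the ribosome with its J protein partner Dnajc2, where they meet the nascent chain. It was at 17.9 and 17.3 TPM in DDC fed, 66.1 and 79.3 TPM in E18 and 14.2 and 10.2 TPM in normal fed samples, and the E18 samples stood apart from all adults. It rose at E18 (2.49 ± 0.22, adjusted p = 6.5e-05; 1.34 relative to the median gene, also past the test) and was lower in DDC fed adults than at E18 (-1.98 ± 0.22, adjusted p = 0.0003). Exons of Hspa14 share 7.91% of their bases with the gene Gm45902 on the same strand. Dnajc2, the J protein of this pair, was at 20.8 and 21.3 TPM in DDC fed, 43.2 and 47.3 TPM in E18 and 21.7 and 19.0 TPM in normal fed samples. It rose at E18 (1.12 ± 0.19, adjusted p = 0.0014), but relative to the median gene its value was -0.04 and did not pass. It was lower in DDC fed adults than at E18 with both scalings (-1.07 ± 0.19, adjusted p = 0.0023, and -0.57).

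The stress-inducible pair Hspa1a and Hspa1b passed in no comparison with TPM as deposited. These near-identical copies cannot be told apart by most reads, so their split is uncertain and their sum is given. It was 32.1 and 35.4 TPM in DDC fed, 23.5 and 14.9 TPM in E18 and 43.9 and 10.7 TPM in normal fed samples. The normal fed samples spanned all the others, and the standard error of either copy was 0.56. Hspa1b was, relative to the median gene, lower at E18 than in normal fed adults (-1.63) and higher in DDC fed adults than at E18 (1.48).

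Hspa12b, an Hsp70-like protein known from endothelial cells, was at 0.276 and 0.301 TPM in DDC fed, 3.92 and 3.20 TPM in E18 and 0.131 and 0.0298 TPM in normal fed samples. It passed the filter through its E18 values alone and hence had to differ from the adults. Its fold change was 2.07 ± 0.13 at E18 (1.60 relative to the median gene), and -1.82 ± 0.13 for DDC fed adults over E18. The 10 endothelial markers summed to 209 and 219 TPM in DDC fed, 530 and 528 TPM in E18 and 55.0 and 17.7 TPM in normal fed samples, and all 10 were higher in both comparisons with normal fed adults (9 in each relative to the median gene). Over all genes tested, 34.2% were higher with DDC and 63.0% at E18. What endothelial cells contribute to Hspa12b was not tested. Hspa12a stayed under the filter, with 0.632 TPM as its highest value, as did Hspa1l with 0.367 TPM, a gene known from testis.

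Of the 3 Hsp110 exchange factors, Hspa4l rose with DDC and Hspa4l and Hspa4 rose at E18 with TPM as deposited. Hspa4l was at 23.3 and 24.2 TPM in DDC fed, 26.5 and 28.4 TPM in E18 and 13.8 and 12.3 TPM in normal fed samples. The fold change was 0.82 ± 0.18 with DDC (adjusted p = 0.014) and 1.01 ± 0.18 at E18 (adjusted p = 0.0021), against 0.17 and -0.12 relative to the median gene, where neither passed. With DDC it did not pass without DDC fed sample 0 or 1 (adjusted p = 0.120 and 0.140). Hspa4 was at 80.4 and 77.1 TPM in DDC fed, 101 and 104 TPM in E18 and 67.7 and 40.3 TPM in normal fed samples. Its rise at E18 (0.96 ± 0.27, adjusted p = 0.015) became -0.22 relative to the median gene, and did not pass without E18 sample 0 or 1 (adjusted p = 0.0614 and 0.0743). Hsph1, whose promoter carries the heat shock element of 3 units, was at 67.8 and 88.6 TPM in DDC fed, 73.6 and 75.3 TPM in E18 and 127 and 91.4 TPM in normal fed samples. Its values in both normal fed samples were above all others, no comparison passed with TPM as deposited, and relative to the median gene it was lower with DDC (-1.15) and at E18 (-1.71).

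Both cytosolic Hsp90 genes were higher at E18 with TPM as deposited, and not relative to the median gene. Hsp90aa1, the inducible form, was at 346 and 401 TPM in DDC fed, 533 and 573 TPM in E18 and 296 and 249 TPM in normal fed samples, so that the 3 groups did not overlap. The fold change at E18 was 1.02 ± 0.23 (adjusted p = 0.0052), and -0.17 relative to the median gene. That of Hsp90ab1 was 0.82 ± 0.32 (adjusted p = 0.0499), and -0.37 relative to the median gene. Hsp90ab1 did not pass without normal fed sample 1 (0.45, adjusted p = 0.108), without either DDC fed sample (0.113 and 0.114) or without either E18 sample (0.137 and 0.128). With DDC neither gene passed. A list of 23 genes held Hsp90 co-chaperones, proteins that load clients or tune the Hsp90 cycle, and Trap1, the mitochondrial Hsp90. It had 4 genes higher with DDC, where 34.2% of all genes tested were higher, and 13 higher and 2 lower at E18, where 63.0% and 12.7% of all genes were. By the median-ratio scale 1 was higher and 4 lower with DDC, and 1 higher and 10 lower at E18. Tomm34 (2.01 ± 0.22, adjusted p = 0.00017) and the cyclophilin Ppid (1.31 ± 0.19, adjusted p = 0.00065) had the smallest adjusted p of the co-chaperones at E18. Unc45a, a myosin chaperone, led with DDC (1.32 ± 0.25, adjusted p = 0.007). The 14 genes of the CCT chaperonin and prefoldin, which fold actin and tubulin, had 0 past the test with DDC by limma (1 higher and 0 lower at an unadjusted p under 0.05), where 37.3% of all genes passed. At E18 10 of the 14 were higher and 0 lower, where 63.0% and 12.7% of all genes were. Median-ratio scaling gave 0 higher and 2 lower in each of these comparisons. Cct7 (1.31 ± 0.19, adjusted p = 0.0007) and the prefoldin subunit Vbp1 (2.03 ± 0.32, adjusted p = 0.0011) had the smallest adjusted p at E18.

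In the ER lumen Dnajc10 rose with DDC and Dnajb9 fell at E18, and none of the 6 other genes passed against normal fed adults with TPM as deposited. Dnajc10, the disulfide reductase ERdj5 that opens proteins before their degradation, was at 58.4 and 52.0 TPM in DDC fed, 48.4 and 40.5 TPM in E18 and 17.3 and 13.8 TPM in normal fed samples. Both groups lay above the normal fed samples. The fold change was 1.77 ± 0.21 with DDC (adjusted p = 0.001), and 1.11 relative to the median gene, also past the test. At E18 it was 1.46 ± 0.21 (adjusted p = 0.00069), and 0.31 relative to the median gene, not past the test. Dnajb9, a J protein of BiP also called ERdj4 that restrains the stress sensor Ire1, was at 126 and 165 TPM in DDC fed, 114 and 63.8 TPM in E18 and 191 and 237 TPM in normal fed samples. It fell at E18 (-1.31 ± 0.32, adjusted p = 0.0086; -2.49 relative to the median gene), except without E18 sample 1 (-0.89, adjusted p = 0.0584). With DDC its fold change was -0.56 ± 0.32 (adjusted p = 0.216), and it passed relative to the median gene (-1.24).

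The 3 genes with the ER stress element did not pass against normal fed adults with TPM as deposited. Hspa5 had fold changes of -0.28 ± 0.34 with DDC (adjusted p = 0.549) and -0.65 ± 0.34 at E18 (adjusted p = 0.119). Hsp90b1 had 0.02 ± 0.28 with DDC (adjusted p = 0.975) and 0.17 ± 0.28 at E18 (adjusted p = 0.602). Dnajc3, the inhibitor of the kinase Perk also called p58IPK, was at 117 and 104 TPM in DDC fed, 103 and 70.6 TPM in E18 and 147 and 99.6 TPM in normal fed samples. All 3 were, relative to the median gene, lower at E18 (Hspa5 -1.85, Hsp90b1 -1.03, Dnajc3 -1.68), and Dnajc3 was lower with DDC (-0.81). Dnajb11 and Hspa13, further ER members, were lower with DDC (-1.002 and -0.90) and at E18 (-1.59 and -1.67) by that scale, and did not pass with TPM as deposited. Dnajc1 was higher in DDC fed adults than at E18 (1.16 ± 0.31, adjusted p = 0.015; 1.65 relative to the median gene), except without DDC fed sample 0, DDC fed sample 1 or E18 sample 1 (adjusted p = 0.0817, 0.0589 and 0.0985). It was at 60.4 and 55.4 TPM in DDC fed and at 27.7 and 23.1 TPM in E18 samples, against 49.9 and 26.1 TPM in normal fed samples. Relative to the median gene Dnajc1 was lower at E18 than in normal fed adults (-1.65). By that scale 7 of the 8 ER lumen members were lower and 0 higher at E18, where 32.9% and 36.6% of all genes were.

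The 22 other genes of ER folding and of the unfolded protein response gave 1 higher and 3 lower with DDC, where 34.2% and 3.07% of all genes tested were. At E18 they gave 3 higher and 7 lower, where 63.0% and 12.7% of all genes were. Median-ratio scaling gave 0 higher and 9 lower with DDC, and 1 higher and 15 lower at E18. Eif2ak3, the kinase Perk, was the 1 that rose with DDC (1.13 ± 0.34, adjusted p = 0.038). The ubiquitin ligase Syvn1 (-1.06 ± 0.23, adjusted p = 0.013), Creld2 (-1.17 ± 0.31, adjusted p = 0.025) and Herpud1 (-0.83 ± 0.27, adjusted p = 0.0496), all targets or parts of ER quality control, fell with DDC. Herpud1 was at 568 and 463 TPM in DDC fed, 199 and 137 TPM in E18 and 966 and 868 TPM in normal fed samples. Ero1l, an oxidase that forms disulfide bonds, was at 81.2 and 79.8 TPM at E18, against 11.4 and 5.47 TPM in normal fed samples, and rose (3.19 ± 0.32, adjusted p = 0.00011).

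Of the 9 mitochondrial members 0 passed with DDC by limma with TPM as deposited (0 at an unadjusted p under 0.05), where 37.3% of all genes tested passed. Relative to the median gene 2 of the 9 were lower. The chaperonin subunit Hspd1 was at 552 and 482 TPM in DDC fed, 621 and 525 TPM in E18 and 579 and 282 TPM in normal fed samples. Its lid, Hspe1, was at 426 and 521 TPM in DDC fed, 444 and 427 TPM in E18 and 447 and 1070 TPM in normal fed samples. The ratio of Hspe1 to Hspd1 was 0.772 and 1.08 in DDC fed, 0.715 and 0.814 in E18 and 0.772 and 3.79 in normal fed samples, so that normal fed sample 1 stood apart from the other 5. Exons of these neighbours share 112 bases on opposite strands, and both have processed pseudogenes that can take reads. The part of the shared bases or of pseudogenes in these ratios was not tested. Hspa9, the mitochondrial Hsp70, was at 427 and 371 TPM in DDC fed, 397 and 314 TPM in E18 and 419 and 205 TPM in normal fed samples.

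A group of 3 J proteins, out of the 9 mitochondrial members, fell at E18 with TPM as deposited, where 12.7% of all genes tested fell. Relative to the median gene 7 of the 9 were lower and 0 higher at E18, where 32.9% and 36.6% of all genes were. Hspe1 (-1.86), Hspa9 (-0.93) and Dnajc30 (-1.09) were among these 7. Dnajc19, a part of the import motor, was at 127 and 140 TPM in DDC fed, 86.7 and 76.8 TPM in E18 and 131 and 171 TPM in normal fed samples. It fell at E18 (-0.86 ± 0.22, adjusted p = 0.0093; -2.05 relative to the median gene), and was higher in DDC fed adults than at E18 (0.70 ± 0.22, adjusted p = 0.026). Without E18 sample 1 neither passed (adjusted p = 0.0739 and 0.166), and the difference from DDC fed adults did not pass without E18 sample 0 or either DDC fed sample (0.0848 to 0.179). Dnajc15, which restrains the respiratory chain, was at 71.8 and 81.03 TPM in DDC fed, 51.1 and 55.4 TPM in E18 and 71.8 and 176 TPM in normal fed samples. Its fall at E18 (-1.06 ± 0.40, adjusted p = 0.044; -2.25 relative to the median gene) did not pass without either DDC fed sample or either E18 sample (adjusted p from 0.0641 to 0.140). Dnajc28 also fell at E18 (-0.76 ± 0.19, adjusted p = 0.0084; -1.75 relative to the median gene), except without E18 sample 0 or 1 (0.0658 and 0.0609). Dnajc11, a protein tied to the cristae of mitochondria, rose there with TPM as deposited and turned to -0.38 relative to the median gene. Without the trend with exon length it was lower at E18 (-0.65, adjusted p = 0.0093), and its rise did not pass without either DDC fed or either E18 sample (adjusted p from 0.0639 to 0.123). Dnajc30 passed in no comparison with TPM as deposited. The J protein Dnaja3 was at 84.7 and 84.5 TPM in DDC fed, 65.5 and 58.1 TPM in E18 and 112 and 72.9 TPM in normal fed samples, and passed in no comparison with TPM as deposited. Relative to the median gene it was lower with DDC (-0.77) and at E18 (-1.72). Of the 7 mitochondrial proteases, Spg7 (1.17 ± 0.34, adjusted p = 0.037) and Clpx (0.73 ± 0.20, adjusted p = 0.031) rose with DDC, where 34.2% of all genes tested did. By the median-ratio scale 0 of the 7 were higher and 1 was lower.

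The small heat shock protein Hspb8 had the largest fall of all members tested at E18, with both scalings. Hspb8, which works with Bag3 to send damaged proteins to autophagy, was at 271 and 352 TPM in DDC fed, 58.9 and 33.2 TPM in E18 and 292 and 337 TPM in normal fed samples. The adult groups overlapped, and both E18 samples were far below all 4 adult ones. It fell at E18 (-2.80 ± 0.31, adjusted p = 0.00019; -3.98 relative to the median gene), and was higher in DDC fed adults than at E18 (2.77 ± 0.31, adjusted p = 0.0003; 3.27 relative to the median gene). Both calls held in each of the 17 alternative settings. With DDC its fold change was -0.02 ± 0.31 (adjusted p = 0.976). Its partner Bag3 was at 63.3 and 70.8 TPM in DDC fed, 14.9 and 12.5 TPM in E18 and 83.8 and 40.8 TPM in normal fed samples, and fell at E18 (-2.02 ± 0.34, adjusted p = 0.0014).

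Hspb6, a further partner of Bag3, was at 10.9 and 10.02 TPM in DDC fed, 4.31 and 5.51 TPM in E18 and 16.5 and 10.2 TPM in normal fed samples. It fell at E18 (-1.25 ± 0.27, adjusted p = 0.0046; -2.29 relative to the median gene) in every alternative setting. It was higher in DDC fed adults than at E18 (0.96 ± 0.27, adjusted p = 0.017), except without any 1 of the DDC fed or E18 samples (adjusted p from 0.057 to 0.119). Hspb11, better known as the intraflagellar transport protein Ift25, was at 20.6 and 23.4 TPM in DDC fed, 16.0 and 18.1 TPM in E18 and 8.77 and 18.6 TPM in normal fed samples, and did not pass. Hspb7, a heart and muscle protein, was at 0.0108 and 0.0105 TPM in DDC fed, 0.551 and 0.513 TPM in E18 and 0 in both normal fed samples. Hspb2 was at 0.320 and 0.271 TPM in DDC fed, 0.285 and 0.263 TPM in E18 and 0 in both normal fed samples. Neither reached the filter, and no fold change is given for them.

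Among the 16 exchange factors and regulators of Hsp70, which include the 3 Hsp110 members, 3 rose with DDC, where 34.2% of all genes tested did. At E18 6 of the 16 rose and 3 fell, where 63.0% and 12.7% of all genes did. By the median-ratio scale 0 of the 16 were higher and 5 lower with DDC, and 1 higher and 11 lower at E18. Bag2 was at 4.59 and 5.95 TPM in DDC fed, 30.8 and 30.0 TPM in E18 and 4.72 and 3.95 TPM in normal fed samples and rose at E18 (2.56 ± 0.21, adjusted p = 4.2e-05). Grpel2, an exchange factor of mitochondria, rose with DDC (0.81 ± 0.19, adjusted p = 0.016), and so did Hspbp1 (0.71 ± 0.21, adjusted p = 0.04).

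The Dnaja and Dnajb genes outside the ER lumen and mitochondria gave 1 higher of 11 tested with DDC, where 34.2% of all genes tested were. At E18 they gave 4 higher and 0 lower, where 63.0% and 12.7% of all genes were. With median-ratio scaling the counts were 0 higher and 3 lower with DDC, and 1 higher and 7 lower at E18. Dnajb12, a J protein of the ER membrane that helps degrade misfolded membrane proteins, was at 68.9 and 61.9 TPM in DDC fed, 34.3 and 33.8 TPM in E18 and 44.7 and 25.02 TPM in normal fed samples. Both DDC fed samples were above all others. The rise with DDC (0.94 ± 0.29, adjusted p = 0.04) was 0.27 and not past the test relative to the median gene, and did not pass without either DDC fed sample (adjusted p = 0.203 and 0.144) or either E18 sample (0.0711 and 0.0717). It was higher in DDC fed adults than at E18 (0.92 ± 0.29, adjusted p = 0.027; 1.41 relative to the median gene), except without any 1 of those 4 samples (0.0863 to 0.135).

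Dnajb1, the main J protein partner of stress-inducible Hsp70, was at 47.2 and 70.9 TPM in DDC fed, 88.3 and 76.7 TPM in E18 and 47.3 and 44.7 TPM in normal fed samples. Its rise at E18 (0.83 ± 0.24, adjusted p = 0.018) was -0.35 relative to the median gene and did not pass without E18 sample 0 or 1 (adjusted p = 0.111 and 0.058). Dnaja1, which works with Hspa8, was at 165 and 202 TPM in DDC fed, 149 and 119 TPM in E18 and 272 and 170 TPM in normal fed samples, and passed in no comparison with TPM as deposited. Relative to the median gene it was lower with DDC (-0.92) and at E18 (-1.88). Dnaja4 was at 6.62 and 8.09 TPM in DDC fed, 12.2 and 16.6 TPM in E18 and 5.43 and 4.17 TPM in normal fed samples. Dnaja4 rose at E18 (1.40 ± 0.24, adjusted p = 0.0017; 0.34 and not past the test relative to the median gene) and was lower in DDC fed adults than at E18 (-0.87 ± 0.24, adjusted p = 0.017), except without either DDC fed sample or E18 sample 1 (0.0556 to 0.145) and relative to the median gene (-0.40, adjusted p = 0.120). Its exons share 44.1% of their bases with Wdr61 on the opposite strand. Dnajb6, which keeps polyglutamine proteins and keratin from aggregating and carries the heat shock element of 3 units, was at 60.7 and 64.8 TPM in DDC fed, 77.4 and 79.8 TPM in E18 and 87.8 and 94.7 TPM in normal fed samples. The groups did not overlap, with DDC fed samples lowest. With DDC its fold change was -0.53 ± 0.18 (adjusted p = 0.0579) and, relative to the median gene, -1.21 and past the test. Relative to the median gene Dnajb6 was lower at E18 too (-1.40, also past the test).

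Dnajb2, which sorts clients to the proteasome, was at 63.9 and 72.0 TPM in DDC fed, 34.4 and 39.4 TPM in E18 and 58.6 and 44.9 TPM in normal fed samples. It was higher in DDC fed adults than at E18 (0.86 ± 0.21, adjusted p = 0.011; 1.36 relative to the median gene), except without any 1 of those 4 samples (adjusted p from 0.0531 to 0.0993). Dnajb3, a gene known from testis, was listed at 0 and 0.101 TPM in DDC fed, 3.04 and 4.26 TPM in E18 and 0 in both normal fed samples. It was lower in DDC fed adults than at E18 (-2.14 ± 0.15), but passed the filter through its E18 values alone and hence had to differ. Dnaja2, Dnajb4 and Dnajb5 passed in no comparison with TPM as deposited.

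The remaining Dnajc genes held 13 of the 25 members that rose at E18. Of 18 tested, 13 rose and 2 fell there, where 63.0% of all genes tested rose and 12.7% fell, and 3 rose with DDC, where 34.2% of all genes did. Among the 13, Dnajc6 and Dnajc27 passed the filter through their E18 values and hence had to differ. By the median-ratio scale 5 genes of this class were higher and 4 lower at E18, and 0 higher and 2 lower with DDC. Their summed level was 448 and 440 TPM in DDC fed, 668 and 710 TPM in E18 and 404 and 328 TPM in normal fed samples, so that the E18 samples stood above all adults. Dnajc9, a chaperone of histones H3 and H4, had the largest rise of the members tested at E18, with both scalings. It was at 21.9 and 19.0 TPM in DDC fed, 84.0 and 114 TPM in E18 and 6.32 and 7.67 TPM in normal fed samples, with no overlap between any groups. The fold change was 1.43 ± 0.23 with DDC (adjusted p = 0.0036), 3.63 ± 0.23 at E18 (adjusted p = 1.2e-05) and -2.21 ± 0.23 for DDC fed over E18 (adjusted p = 0.0002). Relative to the median gene it was 0.80 with DDC and did not pass (adjusted p = 0.0673), and 2.50 at E18 and -1.70 for DDC fed over E18, which both passed.

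**Figure D4:**
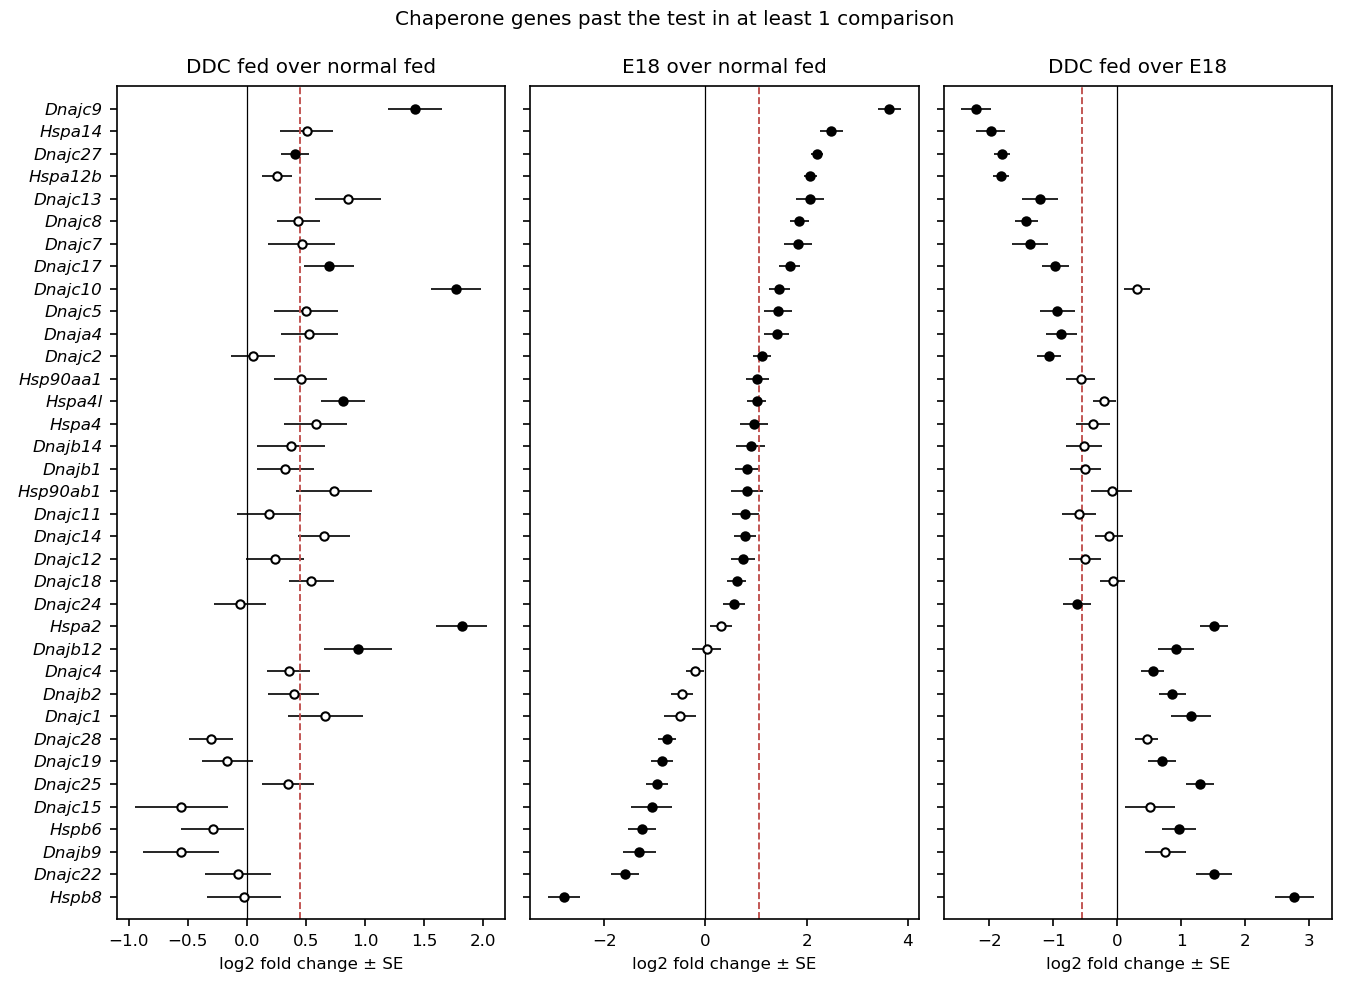
Log2 fold changes ± SE of the 36 chaperone genes past the test in at least 1 comparison and not listed at 0 in a whole group. Filled points passed, open points did not, and the dashed line is the median of all genes tested (0.45, 1.06 and -0.55). The genes run from the largest rise at E18, Dnajc9 at 3.63, to the largest fall, Hspb8 at -2.80.

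Dnajc8, a protein of splicing complexes, was at 51.8 and 55.4 TPM in DDC fed, 136 and 155 TPM in E18 and 40.1 and 38.6 TPM in normal fed samples. Dnajc8 rose at E18 (1.86 ± 0.19, adjusted p = 0.00011; 0.68 relative to the median gene, also past the test) and was lower in DDC fed adults than at E18 (-1.42 ± 0.19, adjusted p = 0.0006). Dnajc7, which carries clients between Hsp70 and Hsp90, was at 55.1 and 50.3 TPM in DDC fed, 130 and 146 TPM in E18 and 49.9 and 28.8 TPM in normal fed samples, and rose at E18 (1.83 ± 0.28, adjusted p = 0.00093; 0.65 relative to the median gene, also past the test). Dnajc13, a J protein of endosomes, was at 12.6 and 10.5 TPM in DDC fed, 28.7 and 27.1 TPM in E18 and 7.87 and 4.36 TPM in normal fed samples, and rose at E18 (2.07 ± 0.28, adjusted p = 0.0005; 0.97 relative to the median gene, also past the test). These 3 genes, with Dnajc9 and Hspa14, rose at E18 in every alternative setting in which they were tested. So did Hspa12b, Dnajc27 and Dnajb3, which passed the filter through their E18 values and hence had to differ. Dnajc7 and Dnajc8 were lower in DDC fed adults than at E18 in each setting too, and Dnajc13 was not without DDC fed sample 1 or E18 sample 0 (adjusted p = 0.0622 and 0.054) or without the trend with exon length (-0.38, adjusted p = 0.0724).

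Dnajc5, the cysteine string protein of secretory vesicles, was at 29.3 and 28.7 TPM in DDC fed, 55.7 and 57.1 TPM in E18 and 26.5 and 15.4 TPM in normal fed samples. Dnajc5 rose at E18 (1.43 ± 0.27, adjusted p = 0.0025; 0.28 and not past the test relative to the median gene), and was lower in DDC fed adults than at E18 (-0.94 ± 0.27, adjusted p = 0.02), except without any 1 of those 4 samples (0.0867 to 0.104) and relative to the median gene (-0.43, adjusted p = 0.0666). Dnajc17 was at 4.87 and 4.35 TPM in DDC fed, 9.80 and 10.2 TPM in E18 and 1.999 and 3.004 TPM in normal fed samples. It rose with DDC (0.69 ± 0.21, adjusted p = 0.041) and at E18 (1.67 ± 0.21, adjusted p = 0.00037), and passed in neither relative to the median gene (0.16 and 0.67). With DDC it did not pass without either DDC fed sample (adjusted p = 0.233 and 0.159) or either E18 sample (0.0802 and 0.0796). Dnajc17 was lower in DDC fed adults than at E18 (-0.97 ± 0.21, adjusted p = 0.0063), except without DDC fed sample 1 or E18 sample 1 (0.0555 and 0.0518) and relative to the median gene (-0.51, adjusted p = 0.155). Dnajc27, a small GTPase with a J domain, was at 0.483 and 0.354 TPM in DDC fed, 3.68 and 4.198 TPM in E18 and 0.0933 and 0.0413 TPM in normal fed samples. Its rise with DDC (0.41 ± 0.12, adjusted p = 0.037) did not pass without any 1 of the normal fed or DDC fed samples (adjusted p from 0.0583 to 0.230), nor relative to the median gene (0.35), and it turned to -0.18 without the trend with exon length. It was lower in DDC fed adults than at E18 (-1.80 ± 0.12), but passed the filter through its E18 values alone and hence had to differ. Dnajc6, the auxilin that uncoats clathrin vesicles in neurons, had 1.67 and 1.33 TPM in the E18 samples, the 4 adult samples list it at 0, and it passed against both adult groups. Without the trend with exon length its rise over normal fed adults was 0.063 and did not pass (adjusted p = 0.781).

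Dnajc12, a partner of the aromatic amino acid hydroxylases such as phenylalanine hydroxylase of liver, was at 11.6 and 10.8 TPM in DDC fed, 19.0 and 14.0 TPM in E18 and 8.01 and 10.9 TPM in normal fed samples. Its rise at E18 (0.74 ± 0.24, adjusted p = 0.028) was -0.37 relative to the median gene, and did not pass without normal fed sample 0, either DDC fed sample or E18 sample 0 (adjusted p from 0.053 to 0.202). Dnajc14, Dnajc18 and Dnajc24 also rose at E18 with TPM as deposited, and had negative fold changes with median-ratio scaling, as did Dnajb14, an ER membrane J protein. Without the trend with exon length Dnajc14, Dnajc18 and Dnajb14 were lower at E18 (-0.52, -0.60 and -0.63, adjusted p = 0.0163, 0.00897 and 0.00975). None of these 4 rises passed without E18 sample 0 or without E18 sample 1, nor did those of Dnajc18 and Dnajc24 without either DDC fed sample, or that of Dnajc24 without normal fed sample 0 (adjusted p from 0.0531 to 0.194). Dnajc24 was also lower in DDC fed adults than at E18, and Dnajc4 was higher there, each with TPM as deposited and each lost without any 1 of the DDC fed or E18 samples (adjusted p from 0.0951 to 0.276 and from 0.146 to 0.205). Relative to the median gene Dnajc24 did not pass there (-0.15). Dnajc16 passed in no comparison with TPM as deposited. Dnajc21, a factor of ribosome assembly, was at 22.2 and 24.5 TPM in DDC fed, 24.4 and 24.8 TPM in E18 and 30.9 and 19.8 TPM in normal fed samples, and passed only with median-ratio scaling (-0.75 with DDC and -1.16 at E18).

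A pair of Dnajc genes fell at E18 instead. Dnajc22, a membrane J protein whose fly relative is needed for endocytosis, was at 114 and 115 TPM in DDC fed, 51.8 and 30.1 TPM in E18 and 129 and 113 TPM in normal fed samples. It fell at E18 (-1.59 ± 0.28, adjusted p = 0.0018; -2.76 relative to the median gene) and was higher in DDC fed adults than at E18 (1.51 ± 0.28, adjusted p = 0.0031; 2.01 relative to the median gene), in every alternative setting. Dnajc25, a membrane J protein, was at 39.5 and 35.9 TPM in DDC fed, 16.4 and 13.1 TPM in E18 and 33.1 and 25.9 TPM in normal fed samples. It fell at E18 (-0.95 ± 0.22, adjusted p = 0.0063; -2.09 relative to the median gene), except without E18 sample 1 (-0.80, adjusted p = 0.0661), and was higher in DDC fed adults than at E18 (1.30 ± 0.22, adjusted p = 0.002) in every setting. Its exons share 7.66% of their bases with the gene Gm20503 on the same strand.

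The regulators of the family were measured too. A list of Hsf1 to Hsf5 and Hsbp1, a heat shock factor binding protein, had 4 genes tested. Of these 4, 0 passed with DDC by limma (0 at an unadjusted p under 0.05), where 37.3% of all genes tested passed. Hsf1, the main activator of the heat shock response, was at 8.999 and 12.3 TPM in DDC fed, 21.7 and 25.9 TPM in E18 and 10.6 and 8.46 TPM in normal fed samples. It rose at E18 with TPM as deposited (1.24 ± 0.24, adjusted p = 0.0027), whereas 0 of the 4 were higher and 3 lower there by the median-ratio scale. Hsf4, the factor known from the lens, was at 10.1 TPM in both DDC fed, 0.168 and 0.266 TPM in E18 and 8.81 and 6.48 TPM in normal fed samples, and was lower at E18 (-2.82 ± 0.20, adjusted p = 2.1e-05), but it passed the filter through the adults alone and hence had to differ. The 12 immediate early genes, which are switched on within minutes of cell isolation as well as by stress, summed to 2239 and 3576 TPM in DDC fed, 4914 and 3668 TPM in E18 and 1003 and 542 TPM in normal fed samples. With DDC 11 of them rose and at E18 all 12 did, and by the median-ratio scale 8 and 7. Over all genes tested, 34.2% rose with DDC and 63.0% at E18 with TPM as deposited. The part of isolation in the levels of the chaperone genes was not tested.

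The normal fed samples differed from each other more than those of the other groups. Over the 60 members tested, the 2 samples of a group differed by a median of 0.14 in DDC fed, 0.18 in E18 and 0.41 in normal fed hepatocytes, in absolute terms on the log2(TPM + 1) scale. Normal fed sample 1 was below sample 0 in 43 of the 60 members. The median of that difference (sample 1 minus sample 0) was -0.07 over the 20 members with the shortest total exon length and -0.51 over the 20 with the longest (Spearman's rho -0.307 across 60 genes of the same 2 samples). Some genes stood apart from this trend. Hspe1 and Dnajc15 were higher in sample 1 (by 1.26 and 1.28 on that scale), and Hspa1a and Hspa1b were lower in it (-1.84 and -1.86). The fold changes of those 4 genes against normal fed adults rest on samples that differ this much.

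**Figure D5:**
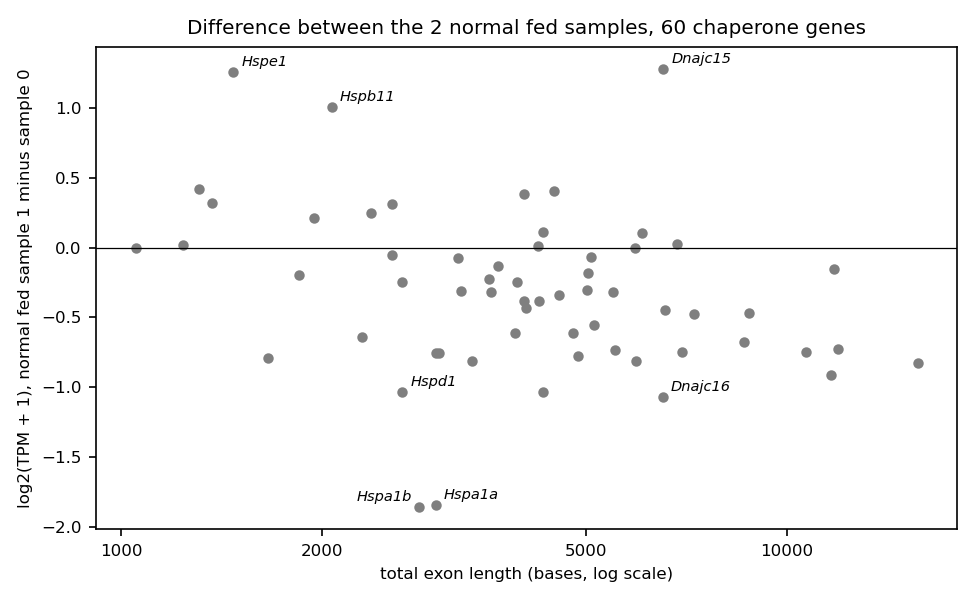
Difference between the normal fed samples (sample 1 minus sample 0, log2(TPM + 1)) against total exon length (bases, log scale) for the 60 chaperone genes tested, with a point for each gene. Most points lie below 0, and Hspe1, Hspb11 and Dnajc15 lie highest, Hspa1a and Hspa1b lowest.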

How the data were processed

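Expression was deposited by the authors as TPM for 48432 genes in 6 samples, a unit given per the file headers, and each column sums to 1000000. Per the labels, libraries were made with a stranded mRNA kit after poly(A) selection. Per the submitters' processing notes, the build was GRCm38 (mm10) and the tools were STAR 2.4.2a, Cuffdiff 2.2.1, HTSeq, DESeq2, Picard 1.119, Trimmomatic and bcl2fastq 2.17.1.14, with no role for each. Which of them made the table, with which strand setting and annotation, is not given in the sources used here. No counts were at hand, so depth and counting error are unknown. The columns, numbered 0 and 1, were mapped to groups alone, since the titles are numbered otherwise.

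Identifiers were matched to GENCODE M21 (48053 of 48432). The 14307 genes that reached 1 TPM in 2 or more of 6 samples were tested on log2(TPM + 1) with limma 3.58.1 in R 4.3.3, with 1 mean per group, 3 residual degrees of freedom, a prior variance that follows the mean, two-sided p-values and Benjamini-Hochberg adjustment at 0.05. The members and gene lists were chosen with earlier results of these data known.

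Named members were a fixed panel, up to 8 risers and 8 fallers per comparison with a mean of at least 5 TPM and no overlap, and the 10 highest in each group. Companion lists have up to 4 members named for each comparison. Other members were named after their values were seen, so that each member called is named. The alternatives tried were pseudocounts of 0.1 and 5, no filter, a filter on a mean of 5 TPM, median-ratio scaling, TPM rescaled after dropping the 50 highest genes and erythroid markers, removal of the trend with exon length, the replicate number as a block, only the compared groups, no trend in the prior variance, protein-coding genes alone, and each sample left out in turn, after which a lone sample is taken to vary as the other groups do. Promoter windows and their letters are from RefSeq. Reads were not analysed here.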

Additional observations from a re-analysis of the deposited data

How the results depend on the processing

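For DDC fed against normal fed adults, the 7 members higher became 2 with median-ratio scaling, 3 after removal of the exon-length trend, which also centres each sample, and 4 with only the compared groups in the fit. The 0 members lower became 13 with median-ratio scaling and 13 after removal of the exon-length trend, and 1 each without a filter, with TPM rescaled without the highest genes and erythroid list, and without a trend in the prior variance. At E18 against normal fed adults, the 25 higher became 8 and 9, and the 8 lower became 31 and 34, with the first 2 of these settings, and 15 were lower with rescaled TPM. For DDC fed adults against E18, the 10 higher became 23, 28 and 16 with median-ratio scaling, without the exon-length trend and with only the compared groups, and the 14 lower became 9 with median-ratio scaling. With 1 sample left out in turn, members higher and lower ranged from 3 to 30 and from 0 to 4 with DDC, from 12 to 30 and from 3 to 18 at E18, and from 4 to 16 and from 6 to 20 for DDC fed adults against E18. Over all genes the numbers past the test then ranged from 2623 to 8902, from 7295 to 11802 and from 4888 to 11183.

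Of the 61 fold changes of members past the test and not against a group listed at 0, 13 changed sign. With DDC this was Dnajc27, at -0.18 without the exon-length trend. The other 12 were at E18 against normal fed adults. With median-ratio scaling and without the exon-length trend they were -0.35 and -0.11 for Dnajb1, -0.100 and -0.63 for Dnajb14, -0.38 and -0.65 for Dnajc11, -0.37 and -0.38 for Dnajc12, -0.36 and -0.52 for Dnajc14, -0.33 and -0.60 for Dnajc18, -0.040 and -0.063 for Dnajc2, -0.17 and -0.025 for Hsp90aa1, -0.37 and -0.073 for Hsp90ab1, -0.22 and -0.26 for Hspa4, and -0.12 and -0.45 for Hspa4l. Dnajc24 was at -0.55 with median-ratio scaling. Of 1017 alternative values of the 61, 843 kept their direction and call and 150 kept the direction and lost the call. The cause was not tested.

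Whether same-numbered columns belong together is not given in the labels. Deviations of same-numbered samples correlated across genes at 0.233 between DDC fed and normal fed, 0.139 between E18 and normal fed and 0.0605 between DDC fed and E18. With 2 samples in each group these values cannot decide it. With the replicate number as a block, 7 members were higher and 0 lower with DDC, 25 higher and 9 lower at E18, and 9 higher and 14 lower for DDC fed adults against E18. With 2 samples in each group and no counts, small changes and low levels cannot be resolved.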
